A study of Mus musculus with 4 samples.

Results

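The genes of the urea cycle and of amino acid breakdown were followed in liver and spleen of mice fed a nucleoprotein diet, against mice fed a control diet, after both had received lipopolysaccharide (LPS). The set was a fixed list of 39 genes, of which 38 had a probe among the 27666 genes named on the array. No probe was named Haao here. The nucleoprotein pools came from male C57BL/6J mice, 7 weeks old, that ate a purified diet with 1.2% of a nucleoprotein product for 4 weeks (0.5% nucleic acids by weight of diet). The control pools came from mice of the same strain, sex and age on the purified diet without the product (0.03% nucleic acids), although the housing notes name a standard chow. All mice received a single injection of LPS, the endotoxin of Gram-negative bacteria, at 10 mg/kg, and liver and spleen were removed 6 h later, so no uninjected state was analysed here. RNA was pooled by diet. The titles number pooled samples 1 and 2 in each organ without saying whether these were separate pools, and they were counted here as 1 pool per diet and organ. How many mice a pool held is not given in the sources used here.

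Amino acids are broken down mainly in hepatocytes. Their nitrogen passes through glutamate to ammonia, the urea cycle turns ammonia into urea, and the carbon skeletons go on to glucose or energy metabolism. Arginine stands at a branch point: arginase 1 (Arg1) splits it to urea and ornithine as the last step of the cycle, arginase 2 (Arg2) does the same in mitochondria of many tissues, and inducible nitric oxide synthase (Nos2), which macrophages make after LPS, turns it into nitric oxide.

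The array probes that read this branch point are shown because the comparison of arginine-using enzymes rests on them. Each is 60 bases long, written 5′ to 3′ as deposited, with positions from the files on mouse build mm7 (NCBI 35), and each has at least 1 reading frame without a stop codon. The Arg1 probe lies at chr10:24669046-24669105 on the minus strand, the Arg2 probe at chr12:77110462-77110521 on the plus strand and the Nos2 probe at chr11:79041233-79041292 on the plus strand. No letter is in capitals, as no part is singled out.
Arg1: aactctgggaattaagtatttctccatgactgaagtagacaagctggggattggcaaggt
Arg2: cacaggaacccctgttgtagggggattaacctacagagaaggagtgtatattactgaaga
Nos2: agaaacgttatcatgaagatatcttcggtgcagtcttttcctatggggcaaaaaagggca

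Each organ was read on 2 arrays that carried both pools, with the nucleoprotein pool in the red dye Cy5 on replicate 1 and in the green dye Cy3 on replicate 2. A diet ratio is the log2 of nucleoprotein over control on 1 array, and its mean ± SD is over the 2 arrays. The dye effect is the log2 of Cy5 over Cy3, in which the diets cancel. A level is the log2 normalized intensity of 1 pool in 1 dye, and levels are compared only within a probe. A member counted as measurable where at least 1 diet's pool stood well above background in each dye of that organ. A call needed a difference beyond 1.5-fold, a log2 size of 0.58, with the same sign on the replicate 1 and replicate 2 arrays. The 2 arrays were treated as a technical dye swap of the same pools, so no test was run. The SD of a diet ratio and the size of the dye effect come from the same difference between the 2 arrays. They are therefore not separate measures. The SD holds dye bias, which cancels in the mean, together with labelling and array error. If the pools were separate, the SD would also hold variation between pools of mice.

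The whole array gives the background for these genes. In green 55.17% to 66.77% of the gene spots cleared background well, in red 66.48% to 72.76%, and no spot was saturated. The organs matched their labels by markers. In liver, the hepatocyte gene Alb had levels of 15.62 in the nucleoprotein pool and 15.53 in the control pool, and in spleen the B cell gene Ms4a1 had 14.11 in the nucleoprotein pool and 14.10 in the control pool. Pancreatic acinar markers were called lower in the nucleoprotein pools. In liver 16 of 16 genes were called (median diet ratio -3.95), against 0.317% of all measurable genes. In spleen 14 of 16 were called (median -1.07), against 0.226%, and all 16 lay below 0 on both arrays. Their summed linear levels in liver were 6357 to 6813 in the nucleoprotein pool and 116287 to 119233 in the control pool, and in spleen 11143 to 12314 in the nucleoprotein pool and 26511 to 27571 in the control pool. Medians of macrophage, neutrophil, B cell and T cell markers lay between -0.03 and 0.22 in liver and between -0.08 and 0.19 in spleen, with no marker of these lists called. The part of these shifts in the values below was not tested.

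The amino acid genes were mostly liver genes. Of 35 members that could be compared, 33 were more than 2-fold higher in liver than in spleen in both diets, against 14.1% of all 19227 genes compared, and none was higher in spleen, against 18.7% of all genes. The median log2 difference of liver minus spleen was 5.11 over the members and -0.09 over all genes. In whole organs, fewer cells of a type and less RNA per cell cannot be told apart. The plot of levels shows this separation, with the spleen values of many members close to the lowest level that counted as well above background.

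**Figure D1:**
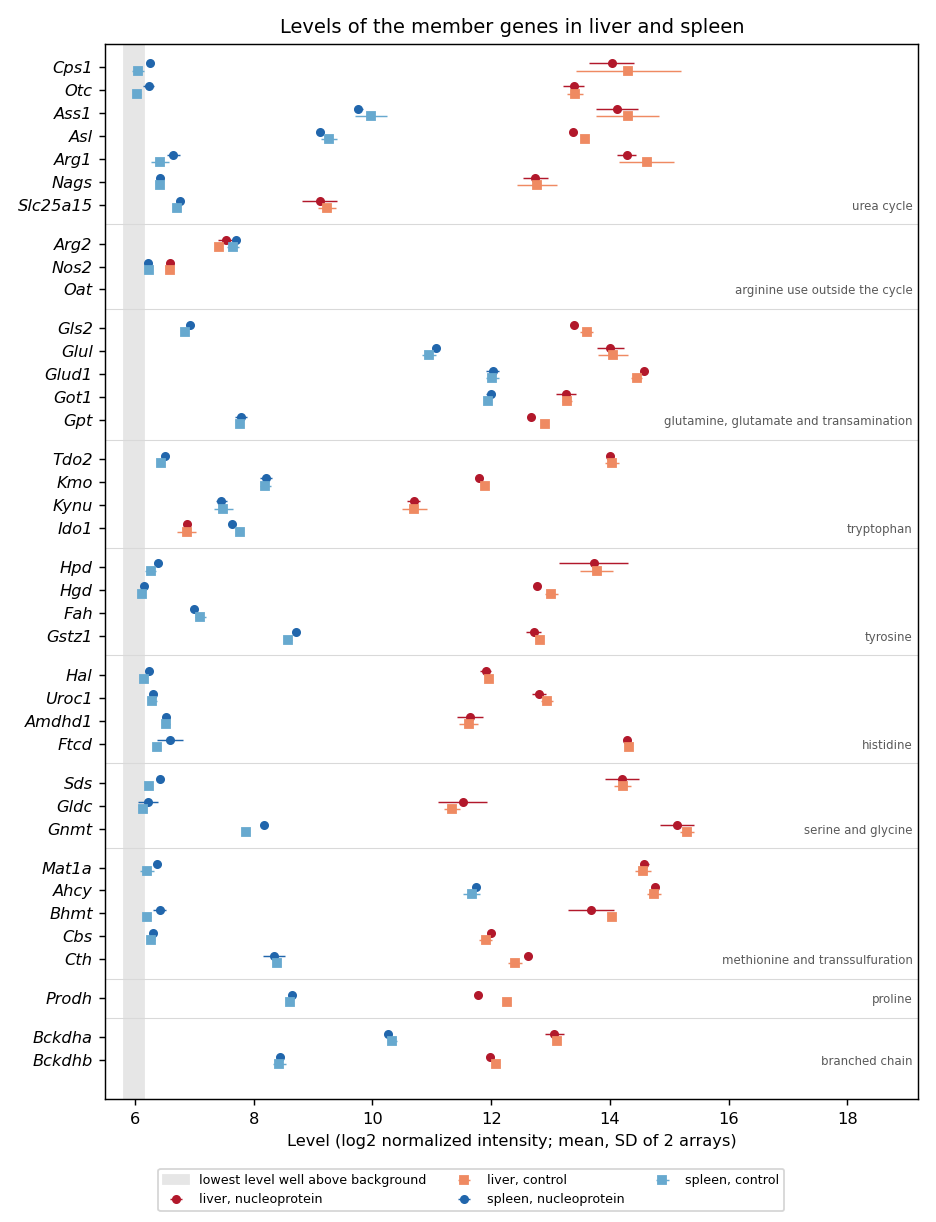
Levels of the member genes, as log2 normalized intensity on the horizontal axis, with circles for the nucleoprotein pools, squares for the control pools, red shades for liver and blue shades for spleen. Points are means of 2 arrays and bars their SD, the grey band spans the lowest levels well above background (5.81 to 6.15), and levels compare only within a gene; among genes drawn for both organs, liver lies right of spleen for all but Arg2 and Ido1.

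Arg1 was well above background on every array of both organs and was 242-fold higher in liver, as the mean of both diets. Mat1a, which makes S-adenosylmethionine in liver, was 312-fold higher and Sds, which deaminates serine, 236-fold, but both were well above background in the spleen control pool on only 1 of 2 arrays. Cps1, the mitochondrial enzyme that brings ammonia into the urea cycle, was not well above background in the spleen control pool on either array, and its liver level in control mice was at least 306-fold higher. The same bound was 162-fold for Otc, the second enzyme of the cycle, and 56.2-fold for the histidine ammonia lyase Hal. Hgd, which opens the ring of homogentisate in tyrosine breakdown, was not well above background in either spleen pool and was at least 98.1-fold higher in liver under the nucleoprotein diet and at least 117-fold under the control diet.

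The called members with the smallest organ differences were still several-fold apart. Got1, the cytosolic aspartate aminotransferase, was 2.46-fold higher in liver, and Slc25a15, the mitochondrial ornithine carrier, 5.42-fold. Glutamate dehydrogenase Glud1 was 5.63-fold higher, Bckdha, a subunit of the branched chain keto acid dehydrogenase, 6.92-fold, glutamine synthetase Glul 8.13-fold, and Ahcy, which clears S-adenosylhomocysteine, 8.24-fold. Arg2 and the interferon-induced tryptophan enzyme Ido1 were the members below the bound. Their liver minus spleen differences were -0.16 and -0.76 in nucleoprotein mice, and -0.24 and -0.90 in control mice.

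With the normalization used here, no member was called for diet in either organ. None of 35 measurable members was called in liver, where 0.0122% of 16403 measurable genes were called higher and 0.317% lower. None of 31 was called in spleen, where 0.215% of 18146 genes were called higher and 0.226% lower. The median diet ratio of the members was -0.05 in liver (-0.04 on replicate 1 and -0.16 on replicate 2), beside 0.01 over all genes, and 0.04 in spleen (0.03 and 0.05), beside 0.00. On both liver arrays, 4 members lay above 0 and 11 below, where all genes gave 20.5% and 13.6%. In spleen 14 lay above 0 and 5 below, where all genes gave 20.4% and 19.9%. All of these members lay inside the bound on average. Of the 14 in spleen, 6 were not well above background in the control pool on both arrays and had passed the filter through the nucleoprotein pool (Cps1, Hpd, Ftcd, Sds, Mat1a and Bhmt), and with both diets required the spleen median was 0.01 over 24 members. In 5 of the 30 members measurable in both organs, Arg1, Gls2, Kmo, Gstz1 and Bhmt, the diet ratio was below 0 on both liver arrays and above 0 on both spleen arrays, where 6.56% of 15315 genes had opposite signs in the 2 organs. The spleen calls depended on the processing. The deposited log ratios of the scanner software gave 5 spleen calls among 31 members, all higher in nucleoprotein, against 102 of 18146 genes.

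**Figure D2:**
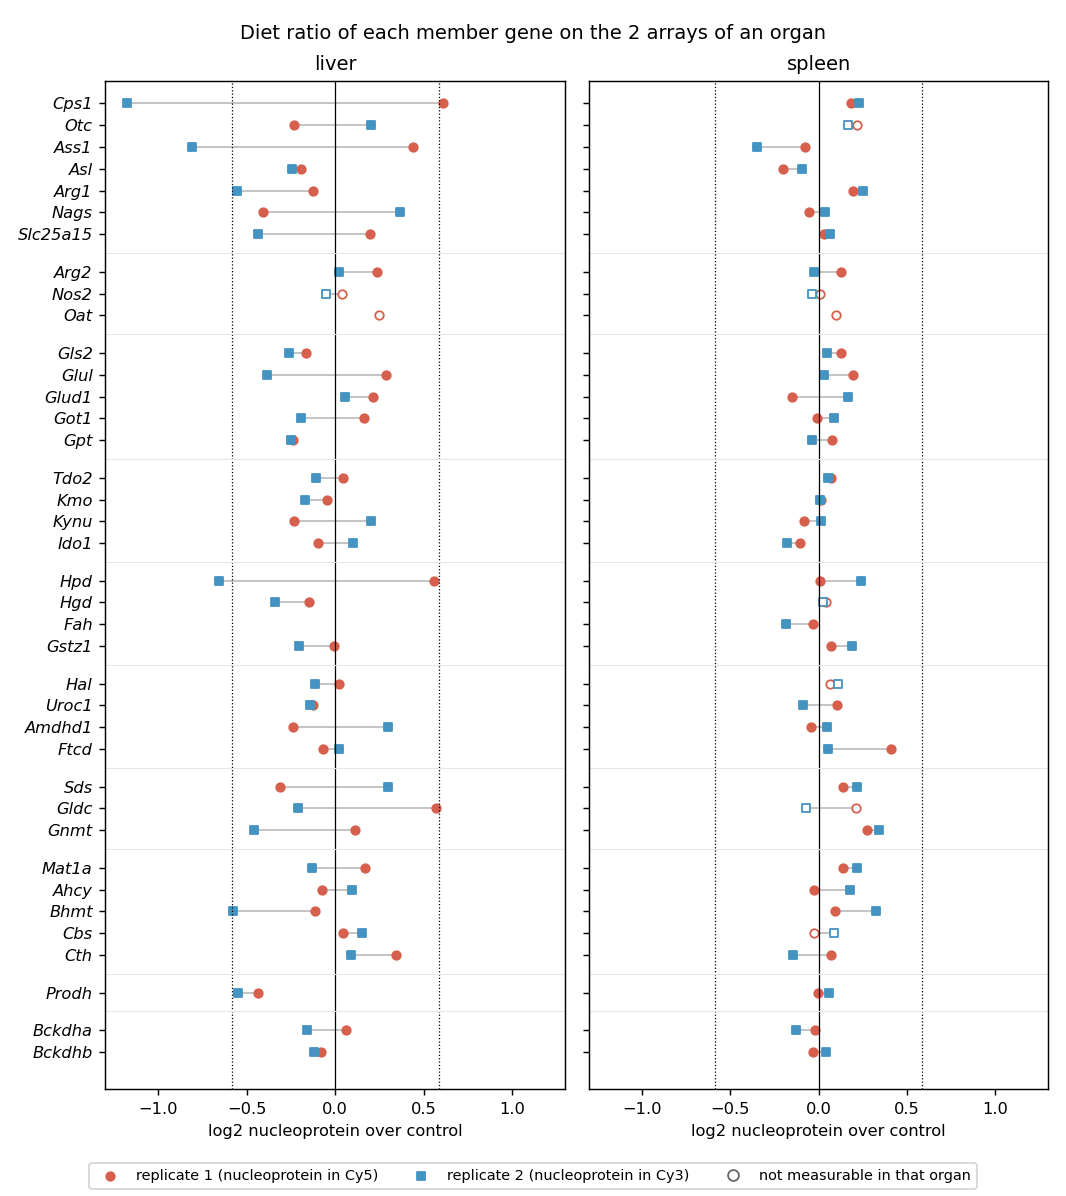
Diet ratio of each member (log2 nucleoprotein over control, horizontal axis) in liver, left, and spleen, right; red circles are replicate 1 arrays and blue squares replicate 2 arrays, open where the gene was not measurable, and dotted lines mark 1.5-fold. Cps1 passes both dotted lines in liver, in opposite directions, and no member passes the same line on both arrays of an organ.

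For several liver genes the dye effect was larger in size than the mean diet ratio. Each dye order was read on a single array per organ. The dye therefore cannot be told apart from the array or, if the pools were separate, from the pool. Cps1 was the only member past 1.5-fold in opposite directions on the 2 liver arrays (1 of 35, against 0.445% of all genes), and none did so in spleen (against 0.022%). The median size of the dye effect was 0.11 over members in liver and 0.09 over all genes, and 0.05 and 0.07 in spleen. Cy5 gave the higher value for 26 of 35 liver members (74.3%), against 54.7% of all genes. Among genes at a level of 12 or above in liver, the median size was 0.14 for 24 members and 0.16 for 1639 genes. Across the 30 members measurable in both organs, the dye effects of liver and spleen had a Pearson correlation of 0.06, while over 15315 genes it was 0.49. Both are descriptions, as all points of an organ come from the same 2 arrays. Of 19 hepatocyte markers, 5 were also past 1.5-fold in opposite directions in liver.

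**Figure D3:**
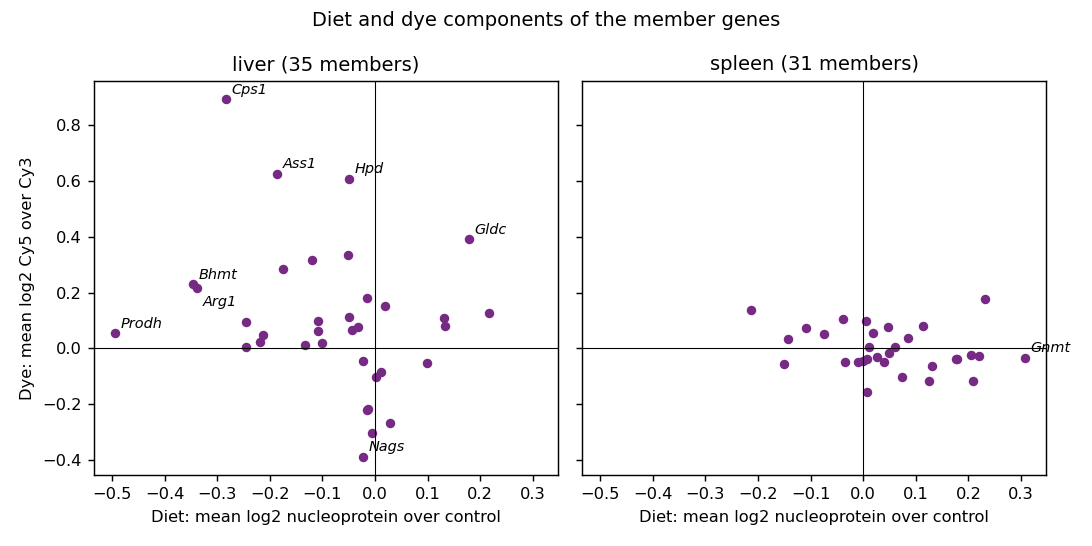
Dye effect (mean log2 Cy5 over Cy3, vertical) against diet ratio (mean log2 nucleoprotein over control, horizontal) of the measurable members in liver, left, and spleen, right; each point is a gene. Cps1, Ass1 and Hpd stand above 0.6 on the dye axis in liver, and no spleen member exceeds 0.18 in size.

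In the urea cycle itself, all 7 genes were measurable in liver, and their median diet ratio was -0.19 (-0.12 on replicate 1 and -0.44 on replicate 2). In spleen 6 were measurable, with a median of 0.02, and Cps1 among them passed the filter only through the nucleoprotein pool. For Cps1 in liver, the nucleoprotein pool read 14.30 in Cy5 and 13.76 in Cy3, and the control pool 13.69 in Cy3 and 14.94 in Cy5. Whichever pool was in Cy5 was the higher one, so the diet ratios were 0.61 and -1.18, their mean -0.28 ± 1.26 (SD, n = 2 arrays) and the dye effect 0.89. Argininosuccinate synthase Ass1, which joins citrulline to aspartate, had 14.37 and 13.87 in the nucleoprotein pool, against 13.93 and 14.68 in the control pool. Its Cy5 reading was also the higher one in both pools, with diet ratios of 0.44 and -0.81 and a dye effect of 0.63. The diet means of both genes were smaller than their SD, which comes from the same array difference as the dye effect.

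Argininosuccinate lyase Asl, the next enzyme, behaved more evenly. Its liver levels were 13.40 and 13.34 in the nucleoprotein pool, against 13.60 and 13.58 in the control pool, a mean diet ratio of -0.22 ± 0.03 (SD, n = 2 arrays). The control values lay above the nucleoprotein values in both dyes, within the bound. Asl was on the same side in spleen, at -0.15 ± 0.08, where Ass1 was at -0.21 ± 0.19. Both genes are also known to recycle citrulline to arginine in cells that make nitric oxide.

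Otc had liver levels of 13.27 and 13.52 in the nucleoprotein pool, against 13.50 and 13.32 in the control pool. The Cy3 reading was the higher one in both pools, the reverse of Cps1, and the mean diet ratio was -0.02 ± 0.31. Otc has 3 probes, and the other two gave 0.22 and -0.44, and 0.26 and -0.35, so the 3 probes did not share a dye direction. Nags, which makes the activator of Cps1, had diet ratios of -0.41 and 0.36 in liver, and the carrier Slc25a15 had 0.20 and -0.44. In spleen Nags lay at -0.06 and 0.04 and Slc25a15 at 0.03 and 0.07.

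Arg1 in liver read 14.17 in Cy5 and 14.39 in Cy3 in the nucleoprotein pool, against 14.30 in Cy3 and 14.94 in Cy5 in the control pool. The pools overlapped in level, while within each array the control pool was the higher one, with diet ratios of -0.12 and -0.55 (mean -0.34 ± 0.30). In spleen Arg1 read 6.72 and 6.57 in the nucleoprotein pool, against 6.53 and 6.32 in the control pool, all well above background, with diet ratios of 0.19 and 0.25 (mean 0.22 ± 0.04). The nucleoprotein values lay above the control values without overlap there, inside the bound. With the deposited log ratios of the scanner software, Agilent Feature Extraction, the spleen ratios were 0.65 and 0.86, past the bound.

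Arg2 stayed within the 2-fold organ bound. In liver it read 7.64 and 7.43 in the nucleoprotein pool, against 7.40 and 7.41 in the control pool, with diet ratios of 0.24 and 0.02. In spleen it read 7.70 and 7.69 in the nucleoprotein pool, against 7.58 and 7.72 in the control pool, with diet ratios of 0.12 and -0.03.

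Nos2, set beside Arg1 as the other user of arginine after LPS, was near the detection limit in both organs. Its level in liver was 6.63 and 6.54 in the nucleoprotein pool and 6.59 and 6.58 in the control pool. In spleen it was 6.24 and 6.19 in the nucleoprotein pool and 6.23 and 6.23 in the control pool. The pools differed by 0.05 or less in size on every array, with diet ratios of 0.04 and -0.05 in liver and 0.01 and -0.04 in spleen.

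The Nos2 probe is printed 10 times on the array, which gives a measure of detection. In liver, 10 of 10 nucleoprotein spots in Cy5 and 4 of 9 in Cy3 were well above background, against 3 of 10 control spots in Cy3 and 9 of 9 in Cy5. In spleen the counts were 8 of 10 in Cy5 and 0 of 9 in Cy3 for the nucleoprotein pool, against 0 of 10 in Cy3 and 9 of 9 in Cy5 for the control pool. Detection thus went with Cy5 and not with a diet, and Nos2 did not meet the rule for a measurable gene in either organ. The SD of the ratio over spots of 1 array was between 0.04 and 0.07. Arg1 was therefore measured in both organs and both diets, but in spleen at levels of 6.32 to 6.72, near those of Nos2 in liver. For Nos2 a diet difference was not detectable at this signal.

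**Figure D4:**
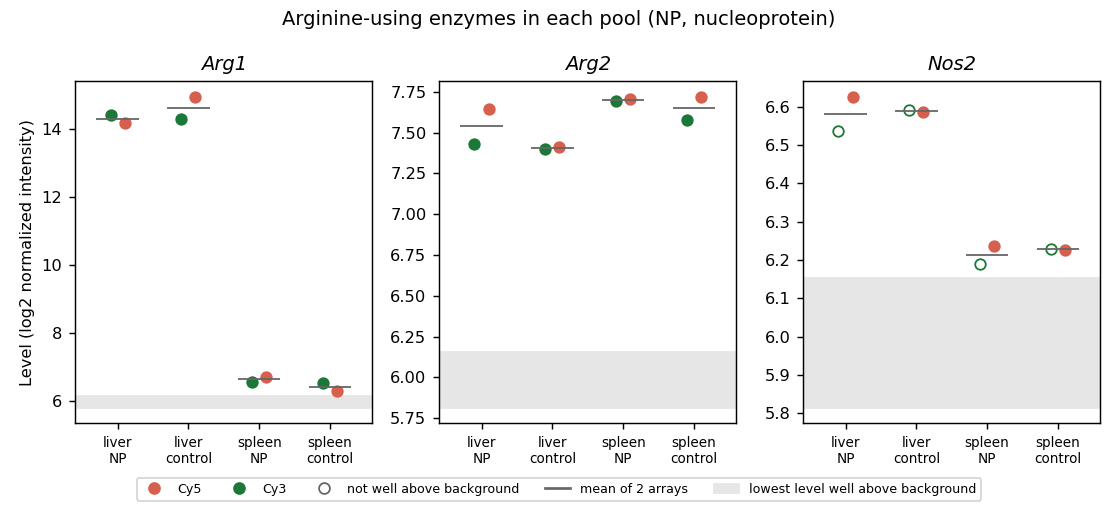
Level (log2 normalized intensity, vertical, a separate scale for each gene) of Arg1, Arg2 and Nos2 in the 4 pools. Red points are Cy5 and green points Cy3, open where most spots of the probe were not well above background. Lines are means of 2 arrays, and the grey band spans the lowest levels well above background. Arg1 stands near 14 in liver and near 6.5 in spleen, Arg2 between 7.40 and 7.72 throughout, and every Cy3 point of Nos2 is open.

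Ornithine aminotransferase Oat, which links ornithine to glutamate and proline, lost its replicate 2 spot in both organs to outlier flags. On replicate 1 its diet ratio was 0.25 in liver and 0.10 in spleen. With flagged spots kept, its mean was -0.10 ± 0.50 in liver and -0.13 ± 0.32 in spleen.

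Glutamine and transamination genes were measurable throughout, with median diet ratios of -0.05 in liver and 0.04 in spleen. The liver glutaminase Gls2 had liver diet ratios of -0.16 and -0.26, and alanine aminotransferase Gpt had -0.24 and -0.25. Gpt was the most even of the group, with a dye effect of 0.01. Glul had 0.28 and -0.39, while its second probe had -0.11 and -0.37, below 0 in both dyes. Glud1 had 0.21 and 0.05, and Got1 0.17 and -0.20. In spleen the group lay between 0.01 and 0.11.

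In tryptophan breakdown, the liver entry enzyme Tdo2 had liver diet ratios of 0.04 and -0.11, and the next steps, kynurenine monooxygenase Kmo and kynureninase Kynu, had -0.04 and -0.17, and -0.23 and 0.20. Ido1, which does the reaction of Tdo2 outside the liver and is known to respond to inflammation, had spleen levels of 7.63 and 7.63 in the nucleoprotein pool, against 7.74 and 7.81 in the control pool. The control values were the higher ones without overlap, with diet ratios of -0.11 and -0.18, inside the bound. In liver Ido1 lay at -0.10 and 0.10. A second Tdo2 probe gave 0.23 and 0.29 in spleen, where the representing probe gave 0.07 and 0.05.

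For tyrosine, Hpd, which makes homogentisate, also read higher in Cy5 in both liver pools. It read 14.14 and 13.31 in the nucleoprotein pool, against 13.58 and 13.97 in the control pool, with diet ratios of 0.56 and -0.66 and a dye effect of 0.61. Hgd had liver ratios of -0.15 and -0.34, and maleylacetoacetate isomerase Gstz1 -0.01 and -0.21. Fumarylacetoacetase Fah, the last step, was flagged as an outlier on both liver arrays, and with flagged spots kept its ratios were 0.34 and -0.51. In spleen Fah had -0.03 and -0.18.

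Histidine genes had a median liver diet ratio of -0.03. Hal had 0.02 and -0.11 in liver, urocanase Uroc1 -0.12 and -0.14, Amdhd1, the following hydrolase, -0.24 and 0.30, and Ftcd, which passes the product to the folate pool, -0.07 and 0.02. A second Amdhd1 probe had the dye direction turned, at 0.20 and -0.17. In spleen Ftcd had 0.41 and 0.05, the widest spread of the members there.

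Among serine and glycine genes, all 3 had liver ratios of opposite sign on the 2 arrays: -0.31 and 0.30 for Sds, 0.57 and -0.21 for the glycine decarboxylase Gldc, and 0.11 and -0.46 for glycine N-methyltransferase Gnmt. In spleen Gnmt had the highest member ratio. It read 8.13 and 8.22 in the nucleoprotein pool, against 7.86 and 7.88 in the control pool, without overlap, and its mean diet ratio was 0.31 ± 0.05 (SD, n = 2 arrays).

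Methionine genes had a median of 0.02 in liver and 0.13 in spleen, where 4 were measurable. Of these 4, Mat1a (0.18) and Bhmt (0.21) passed the spleen filter through the nucleoprotein pool. Ahcy lay at 0.07 and Cth at -0.04 in spleen. Betaine homocysteine methyltransferase Bhmt, which remakes methionine, had liver levels of 13.96 and 13.41 in the nucleoprotein pool, against 14.07 and 13.99 in the control pool. The control values lay above the nucleoprotein values, with diet ratios of -0.12 and -0.58 (mean -0.35 ± 0.33). The transsulfuration enzymes Cbs and Cth, which turn homocysteine into cysteine, were among the 4 members above 0 on both liver arrays, at 0.04 and 0.15, and 0.34 and 0.09. Mat1a had 0.17 and -0.13, and Ahcy -0.07 and 0.10.

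Proline dehydrogenase Prodh, the first enzyme of proline breakdown, came nearest to a call. Its liver levels were 11.79 and 11.76 in the nucleoprotein pool, against 12.23 and 12.31 in the control pool. The pools stood apart in both dyes, with diet ratios of -0.44 and -0.55, a mean of -0.49 ± 0.08 (SD, n = 2 arrays) and a dye effect of 0.06. It was below the 1.5-fold bound and would be called lower at a log2 bound of 0.32. In spleen its ratios were 0.00 and 0.06. The branched chain dehydrogenase subunits Bckdha and Bckdhb had means of -0.05 ± 0.16 and -0.10 ± 0.03 in liver, and -0.07 ± 0.07 and 0.01 ± 0.05 in spleen.

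In spleen, the members that are mainly liver genes leaned to one side. Of 31 measurable members, 13 were more than 32-fold higher in liver than in spleen in both diets. Their median spleen diet ratio was 0.18 (0.12 and 0.22 on the 2 arrays), with 10 of 13 above 0 on both arrays, none below and none past 1.5-fold. Under median centring 2 of 13 lay above 0 on both arrays, with array medians of -0.22 and 0.37, and with the deposited log ratios 11 lay above and 1 below. The other 18 members, among them Fah, which had no liver level to compare, had a median of 0.01. Over all 285 genes of the same organ excess the median was 0.09, with 175 above 0 on both arrays, 22 below and 33 past 1.5-fold. The 13 passed the filter partly through the nucleoprotein pool: in 6 of them the control pool was also well above background on both arrays, and their median was 0.07.

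Hepatocyte markers lay further above 0 in spleen than these members. In spleen 12 of 18 measurable hepatocyte markers were called higher in the nucleoprotein pool, against 0.215% of all measurable genes. The median of the 18 was 1.08, and Alb had a diet ratio of 1.94 ± 0.24 (SD, n = 2 arrays). All 18 were well above background in the nucleoprotein pool and 11 in the control pool on both arrays, and their summed linear level was 7070 to 7675 in the nucleoprotein pool and 2358 to 2664 in the control pool. Over those 11 markers the median diet ratio was 1.55, beside 0.07 over the 6 members also above background in the control pool. The part of hepatocyte markers in the members' spleen ratios was not tested. With the deposited log ratios of Feature Extraction, the median of the 13 members was 0.68. Of the 285 genes of the same organ excess, 86 were then past 1.5-fold on both spleen arrays. Among the members, Cps1, Arg1, Sds, Mat1a and Bhmt passed it. Of these 5 genes, only Arg1 was well above background in the control pool on both arrays, and for Cps1 that software had replaced the control signal by a surrogate value on 1 array.

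**Figure D5:**
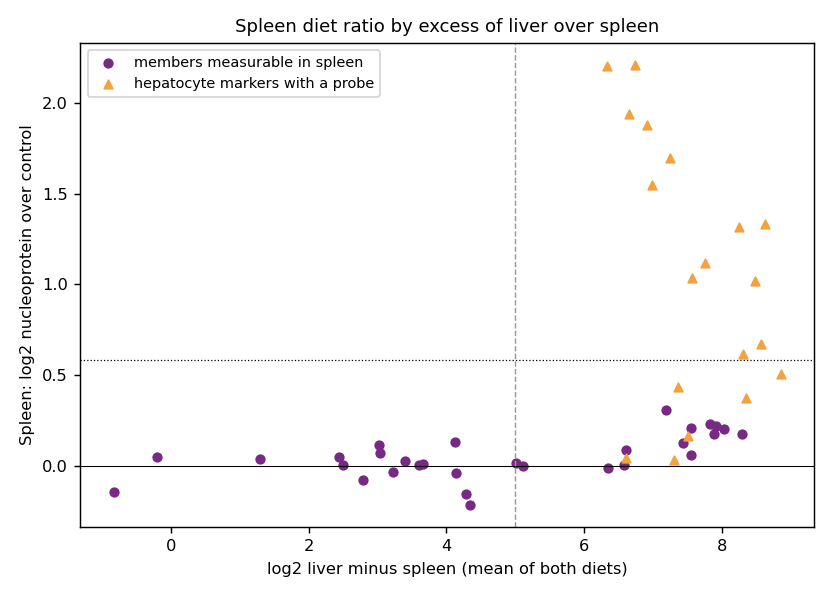
Spleen diet ratio (log2 nucleoprotein over control, vertical) against the log2 difference of liver minus spleen (mean of both diets, horizontal). Purple circles are the 31 measurable members except Fah, which had no liver level, and orange triangles are hepatocyte markers. The dotted line marks 1.5-fold and the dashed line the 32-fold organ excess. Members right of the dashed line lie between -0.01 and 0.31, and most hepatocyte markers lie above the dotted line.

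Genes next to these pathways were read from a list of 70 transporters, polyamine genes and further amino acid enzymes, of which 69 had a probe. None was called of 64 measurable in liver or of 63 in spleen, with medians of -0.05 and 0.00. The largest liver ratios were those of Bhmt2, a methyltransferase related to Bhmt, at -0.48 ± 0.37, and of the kynurenine aminotransferases Kyat1 at -0.35 ± 0.06 and Kyat3 at 0.32 ± 0.18. In spleen they were tyrosine aminotransferase Tat at 0.43 ± 0.11, cysteine dioxygenase Cdo1 at 0.24 ± 0.15, and Agxt, which detoxifies glyoxylate in hepatocytes, at 0.23 ± 0.09 (SD, n = 2 arrays each). Of the 69, 48 were higher in liver and 11 in spleen.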

How the data were processed

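Labelled RNA of the nucleoprotein and control pools was hybridized to 4 two-colour Agilent mouse 4 x 44K arrays, 2 per organ with the dyes swapped. Per the file headers, the deposited scanner files hold mean and background intensity for each spot and dye, and processed intensity after the software's own background and dye correction. The log10 ratio of red over green processed signal was also deposited, per the file headers. The submitters' processing notes name Agilent Feature Extraction 9.5.3.1. The authors' value table held the linear ratio of red over green, with a minus sign on every replicate 1 value whose purpose is unknown, and medians of -0.92, 0.92, -0.96 and 0.96.

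Here, mean and background intensities were corrected with normexp (offset 50) and ratios normalized by loess within arrays, without control spots and with outlier spots left out (189 to 354 per array), in limma 3.58.1 under R 4.3.3. Single-dye levels were scaled with Aquantile. Repeat spots were averaged, the brightest probe stood for a gene, and ratios were turned to nucleoprotein over control. Of 41174 probes, 23082 were named by RefSeq accession, 9655 by symbol or synonym (RefSeq table of GRCm38.p6, names only) and 8437 kept the file's name. Of the members, 10 had more than 1 probe, and all 39 are reported by rule, with every array for the arginine and urea cycle enzymes and for those singled out after their values were seen (Asl, Ido1, Hpd, Gnmt, Bhmt, Prodh). The members and gene lists were chosen with earlier results of these data known. The labels do not say whether pooled samples 1 and 2 were separate pools. Each diet and organ was counted as a single pool, so no test was run. All arrays were on 1 slide. The rule for diet calls was run on simulated ratios only as a check of the code. The simulated dye effects were taken from these data, so that check does not measure how accurate the calls are.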

Additional observations from a re-analysis of the deposited data

Results flagged for a closer look

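In 5 of 30 members measurable in both organs, the diet ratios of the liver arrays and of the spleen arrays had opposite signs, each on both arrays, where 6.56% of all genes did so. The liver minus spleen difference in diet ratio was -0.56 for Arg1 (-0.34 in liver and 0.22 in spleen) and -0.56 for Bhmt (-0.35 and 0.21). It was -0.30 for Gls2 (-0.21 and 0.09), -0.24 for Gstz1 (-0.11 and 0.13) and -0.12 for Kmo (-0.11 and 0.01). Bhmt passed the spleen filter through the nucleoprotein pool, as its control pool was well above background on only 1 of 2 spleen arrays. None of the 5 was called in either organ, and the difference between organs was not tested.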

How the results depend on the processing

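No diet call among members was made in liver or spleen under a normexp offset of 10, median centring, either change of the background filter or the mean of all probes. The deposited log ratios and the authors' value table each gave 5 spleen calls, all higher in nucleoprotein (Cps1, Arg1, Sds, Mat1a and Bhmt), beside 102 of 18146 genes. Of these 5, only Arg1 was well above background in the spleen control pool on both arrays. The others passed the filter through the nucleoprotein pool. With either source, the spleen ratio of Arg1 was 0.76 and that of Cps1 2.21. In the main processing they were 0.22 and 0.20, and at an offset of 10 they were 0.41 and 0.55. Both gave 0 liver members past the bound in opposite directions. At an offset of 10 there were 2 such opposed liver members (Cps1 and Hpd), and at a log2 bound of 0.32 there were 4. That bound also gave 1 liver call (Prodh, lower), beside 102 of 16403 genes called lower. Median centring gave 33 opposed members in liver and 7 in spleen, a liver median of 0.28 for members beside 0.17 for all genes, and an Arg1 liver ratio of 0.05; the cause was not tested. Requiring both diets above background moved the spleen median to 0.01 and the organ count to 21 of 23, as fewer members were compared. Single liver arrays gave between 1 and 3 calls. Without replicate 1 there were 3 lower (Cps1, Ass1 and Hpd), beside 256 of 16403 genes, with a member median of -0.16. Without replicate 2 there was 1 higher (Cps1), beside 195 of 16403 genes, with a member median of -0.04. Single spleen arrays gave 0. Against spleen, 33 of 35 members stayed higher in liver under an offset of 10, median centring and the mean of all probes, and 32 at a bound of 4-fold. No paired analysis was possible because no test was run, and each diet ratio already sets the pools of 1 array against each other. Ratios of members near background in spleen are limited by signal, as is Nos2 in both organs, and variation between mice could not be separated from array error.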
